A study of Arabidopsis thaliana with 36 samples.

Results

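The response described here is that of *uvr8-6* seedlings, which lack the UV-B photoreceptor UVR8, to UV-B added on top of low R:FR. The 3 libraries of *uvr8-6* under +FR+UVB were set against the 3 libraries of *uvr8-6* under +FR, 6 of the 36 libraries of the series, and the comparison was made over the 20926 genes that the authors kept of the 33602 genes counted. It asks which transcripts UV-B still changed in seedlings in shade-mimicking light when the receptor was missing.

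The study used 3 genotypes, *uvr8-6*, wild type (Col) and *hfr1-101*, the last a mutant of the atypical bHLH factor HFR1, and 4 light conditions, named WL, +FR, +UVB and +FR+UVB. All seedlings were 7 days old and 30 of them were pooled for each sample, so every value is an average over whole seedlings. The *uvr8-6* +FR seedlings were given 3 h of far-red light added to WL, which lowered the R:FR from 4.7 to 0.05 by the methods (the sample descriptions also give 0.08). The *uvr8-6* +FR+UVB seedlings were given the same low R:FR for 3 h together with UV-B at 0.06 mW/cm2. The *uvr8-6* WL seedlings were left in WL and the *uvr8-6* +UVB seedlings were given UV-B for 3 h without far-red. The wild-type and *hfr1-101* groups used for comparison had the same age, exposure and light settings. The *uvr8-6* groups carried 1 mutant allele, and no second *uvr8* allele was analysed here. The samples came from independent plates of seedlings according to the design text, so p-values measure the spread between plates handled in this study. In pooled seedlings, fewer cells of a type and less RNA per cell cannot be told apart.

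UVR8 is a photoreceptor that senses UV-B, binds the ubiquitin ligase COP1 and thereby lets the transcription factors HY5 and HYH accumulate, which switches on flavonoid, photoprotection and repair genes. UV-B is also absorbed by other molecules in the cell, DNA among them, and can give rise to reactive oxygen species, and transcripts for detoxification enzymes are known to respond to it in plants without UVR8. Detoxification in plants proceeds by oxidation or reduction of a reactive compound, conjugation of the product to glutathione, glucose or sulfate, and export of the conjugate into the vacuole or out of the cell. Mitochondria that are disturbed send a retrograde signal to the nucleus that raises alternative respiration and many of the same detoxification genes.

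Between 9749710 and 21175260 reads were counted per library over the series, and between 16849241 and 20664356 in the 6 libraries compared. Levels are given as CPM, the usual depth-scaled counts, after TMM correction of library sizes. The floor was set at 3 counts, which is 0.128 to 0.170 CPM in the 6 libraries. The *UVR8* transcript was at 12.2 to 17 CPM in the 12 *uvr8-6* libraries and at 65.6 CPM or more in all others, as the labels say. Leaf mesophyll markers summed to between 44293 and 62538 CPM in the 6 libraries and markers of late embryo and seed to 3.71 CPM or less.

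The libraries of a group differed in how far they moved, and this touches most of the values below. Of the 129 genes called higher, the third +FR+UVB library was the lowest of its group for 116 genes and the second was the highest for 108 genes, whereas over all genes tested the third was the lowest for 39.5%. For the 115 of these genes with a mean of at least 50 counts, the median ratio to the +FR mean was 3.05 in the first +FR+UVB library, 3.97 in the second and 1.87 in the third. The third +FR library was the lowest of its group for 91 of the 129 genes called higher and for 43 of the 50 called lower. The ratios above use the +FR mean and not the +FR library of the same number. The cause of these differences was not tested.

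UV-B added to low R:FR raised 129 transcripts and lowered 50 in *uvr8-6* by more than 2-fold with an adjusted p under 0.05 in edgeR's quasi-likelihood test, which is 0.616% and 0.239% of the genes tested and 0.855% for the 179 genes together. By the adjusted p alone, 275 were higher (1.31%) and 159 lower (0.76%). The rises had a median log2 fold change of 1.67 and the falls one of -1.57. Of 37 listed oxidative stress and detoxification genes 19 were among the rises, and others coded for the sulfotransferase SOT12, transporters and uncharacterized proteins. That list was chosen with earlier results of these data known. All 3 +FR+UVB libraries lay above all 3 +FR libraries for 113 of the 129 genes, and all 3 lay below for 39 of the 50, against 15.4% of all genes without overlap in either direction. In wild type the same treatment raised 1731 transcripts (8.27%) and lowered 1785 (8.53%).

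These calls rest on a spread estimated over all 36 libraries and on single libraries. When the fit held the 12 *uvr8-6* libraries alone, 28 genes were called higher and 0 lower by edgeR, with 2326 genes at an unadjusted p under 0.05. When it held the 6 libraries alone, 0 genes were called by edgeR, with 2064 at an unadjusted p under 0.05 and a smallest adjusted p of 0.0790. All 129 and all 50 were among the 2064, which their selection from these same 6 libraries made likely in advance. DESeq2's Wald test on all libraries called 160 higher and 76 lower. Without the second +FR+UVB library 53 of the 129 and 4 of the 50 remained called, and without the second +FR library 75 and 9. Without the third +FR library 78 of the 129 and 46 of the 50 remained, and without the first +FR library 112 and 13. The call held in each of the 6 fits with 1 library left out for 46 of the 129 genes, among them *GSTU25*, *UGT74E2*, *OPR1*, *SOT12*, *IAGLU* and *AT5G51440*, and for 1 of the 50, *AT5G46890*. All 129 kept a positive and all 50 a negative fold change in each of these fits, which share most of their libraries with the fit that selected the genes.

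Genes of the first detoxification step included reductases, oxidoreductases and cytochromes P450. *OPR1*, an ene reductase of the 12-oxophytodienoate reductase family, was at 95.2, 74.4 and 43.9 CPM in the 3 +FR libraries and at 427, 487 and 184 CPM in the 3 +FR+UVB libraries. It had the highest mean CPM under +FR+UVB of the 129 genes, and the lowest +FR+UVB library stood well above the highest +FR library. Its log2 fold change was 2.36 ± 0.30 (SE, n = 3 against 3; adjusted p = 4.03e-05, edgeR quasi-likelihood test). *OPR2* overlaps *OPR1* on the same strand and is a close copy, so reads may be shared between them, and its values were 24.6 ± 7.99 CPM under +FR and 52.1 ± 11.0 CPM under +FR+UVB (SD, n = 3).

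*AT5G22140*, annotated as a FAD/NAD(P)-binding oxidoreductase, had 4.19, 4.99 and 4.91 CPM under +FR and 46.8, 62.6 and 20.3 CPM under +FR+UVB. The +FR libraries were nearly alike while the +FR+UVB libraries spread 3-fold, with no overlap. The log2 fold change was 3.2 ± 0.37 (adjusted p = 3.02e-05 by edgeR). *AT4G01870*, annotated as a tolB-like protein, went from 41.5, 36.3 and 31.1 CPM to 255, 360 and 134 CPM, again without overlap (log2 fold change 2.78 ± 0.33). The NAD(P)-linked oxidoreductase gene *AT1G60750* went from 1.76, 0.737 and 1.88 CPM to 14.1, 13.3 and 8.07 CPM (log2 fold change 3.00 ± 0.41). Among the cytochromes P450, *CYP81D8*, a frequently used marker of oxidative and xenobiotic stress, had 7.34, 2.83 and 2.14 CPM under +FR and 35.7, 73.9 and 10.2 CPM under +FR+UVB. Its groups did not overlap, but the third +FR+UVB library stood only just above the first +FR library, and the call (log2 fold change 3.27 ± 0.75, adjusted p = 0.0168 by edgeR) was lost without any 1 of 3 libraries. Of 173 cytochrome P450 genes tested, a family chosen after its values were seen, 6 were called higher and 2 lower, beside 0.616% and 0.239% of all genes.

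Conjugation was represented by 3 enzyme families. Tau-class glutathione S-transferases, which attach glutathione to electrophiles, had 9 of 25 tested members called higher, beside 0.616% of all genes. The phi class had 0 of 12 called by edgeR or DESeq2, with 1 at an unadjusted p under 0.05 (both families were chosen after their values were seen). That 1 gene, *GSTF8*, had a log2 fold change of 0.75, which passed the adjusted p (0.0191 by edgeR) but not the 2-fold minimum. *GSTU25* (chr1:5872024-5873124, plus strand) had 7.03, 3.68 and 1.78 CPM under +FR and 92.2, 163 and 18.4 CPM under +FR+UVB. The third library was the lowest of each group, and the groups did not overlap. The log2 fold change was 4.44 ± 0.64 (adjusted p = 0.000127 by edgeR). The other members called higher ranged from *GSTU8*, with a log2 fold change of 1.13 and overlapping groups, to *GSTU4*, with one of 2.72 and no overlap. *GSTU24*, the gene before *GSTU25* on the chromosome, went from 22.0 ± 11.0 to 133 ± 61.7 CPM. Several of these genes lie in tandem and resemble each other, so reads may have been split between neighbours. *GSTU19*, the member with the highest counts, was at 362 ± 75.2 CPM without and 685 ± 177 CPM with UV-B, and its log2 fold change of 0.92 passed the adjusted p (0.00281 by edgeR) but not the 2-fold minimum.

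UDP-glucosyltransferases attach glucose to hormones, flavonoids and foreign compounds. Of 59 tested genes with a UGT name as symbol or synonym, 10 were called higher and 2 lower. Of the 9 with a UGT73 symbol, 6 were called higher, beside 0.616% of all genes called higher and 0.239% lower (families chosen after their values were seen). *DOGT1* (UGT73C5), which the annotation names differently and which is not counted among the 9, rose as well. *UGT74E2*, which in Arabidopsis glucosylates the auxin precursor indole-3-butyric acid and responds to hydrogen peroxide, had 3.05, 2.95 and 1.72 CPM under +FR and 50.5, 89.2 and 18.6 CPM under +FR+UVB. Even the lowest +FR+UVB library was several times above every +FR library. The log2 fold change was 4.35 ± 0.69 (adjusted p = 0.000514 by edgeR). Of these 6, *UGT73B4* had the largest rise, from 4.79 ± 3.6 to 44.3 ± 21.4 CPM, and *UGT73B2* was the most abundant, at 43.2 ± 11.1 CPM under +FR and 109 ± 21.2 CPM under +FR+UVB. *UGT73B4* and *UGT73B5* are overlapping copies on the same strand, and their counts cannot be fully separated. *IAGLU*, which glucosylates the auxin indole-3-acetic acid, had 29.7, 30.0 and 22.1 CPM under +FR and 101, 123 and 65.2 CPM under +FR+UVB. All +FR+UVB libraries were more than 2-fold above all +FR libraries, and the log2 fold change was 1.82 ± 0.22 (adjusted p = 3.02e-05 by edgeR). *UGT74F2*, a salicylate glucosyltransferase, rose less, from 24.1 ± 5.28 to 54.0 ± 19.7 CPM.

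Sulfate conjugation was represented by *SOT12*, a cytosolic sulfotransferase, with 13.2, 12 and 8.09 CPM under +FR and 74.3, 119 and 29.7 CPM under +FR+UVB. The groups did not overlap and the log2 fold change was 2.74 ± 0.36 (adjusted p = 5.90e-05 by edgeR). Sulfate assimilation supplies the sulfur for glutathione. Of 18 of its genes, a set chosen after its values were seen, 2 were called higher and 0 lower, beside 0.616% and 0.239% of all genes. *APR3*, an adenosine phosphosulfate reductase of sulfate assimilation, went from 59.5 ± 15.4 to 188 ± 49.9 CPM. *SERAT2;1*, a serine acetyltransferase of cysteine synthesis, went from 30.9 ± 7.37 to 88.8 ± 27.3 CPM. Members that were not called included *APS1*, *APR1*, *OASA1* and *SULTR1;1*, with log2 fold changes of 0.18, 0.34, 0.04 and -0.61. Outside this set, *DHAR2*, which recycles ascorbate with glutathione, went from 22.3 ± 2.27 to 49.6 ± 16.1 CPM. *APR3*, *SERAT2;1* and *DHAR2* passed the call without overlap of their groups.

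Export was represented by transporters of the ABC and MATE families. Of 103 ABC transporter genes tested, a family chosen after its values were seen, 5 were called higher and 0 lower. These counts stand beside 0.616% and 0.239% of all genes, and the family's median log2 fold change was 0.02. *ABCB4*, an auxin transporter of the plasma membrane, was the most abundant, at 121, 111 and 78.9 CPM under +FR and 260, 327 and 121 CPM under +FR+UVB. The third +FR+UVB library was at the level of the first +FR library, so the groups overlapped, and the log2 fold change was 1.19 ± 0.25 (adjusted p = 0.00861 by edgeR). *ABCC10* showed the least spread, at 20.5 ± 1.73 CPM under +FR and 42.4 ± 0.864 CPM under +FR+UVB. *ABCC3*, a vacuolar transporter of glutathione conjugates, went from 52.6 ± 8.57 to 132 ± 49.1 CPM. The MATE efflux gene *AT2G04070* had 0.517, 0.113 and 0.0522 CPM under +FR and 4.89, 13.8 and 0.384 CPM under +FR+UVB. The third +FR+UVB library lay below the first +FR library, and 2 of its 3 +FR libraries were under the floor.

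**Figure D1:**
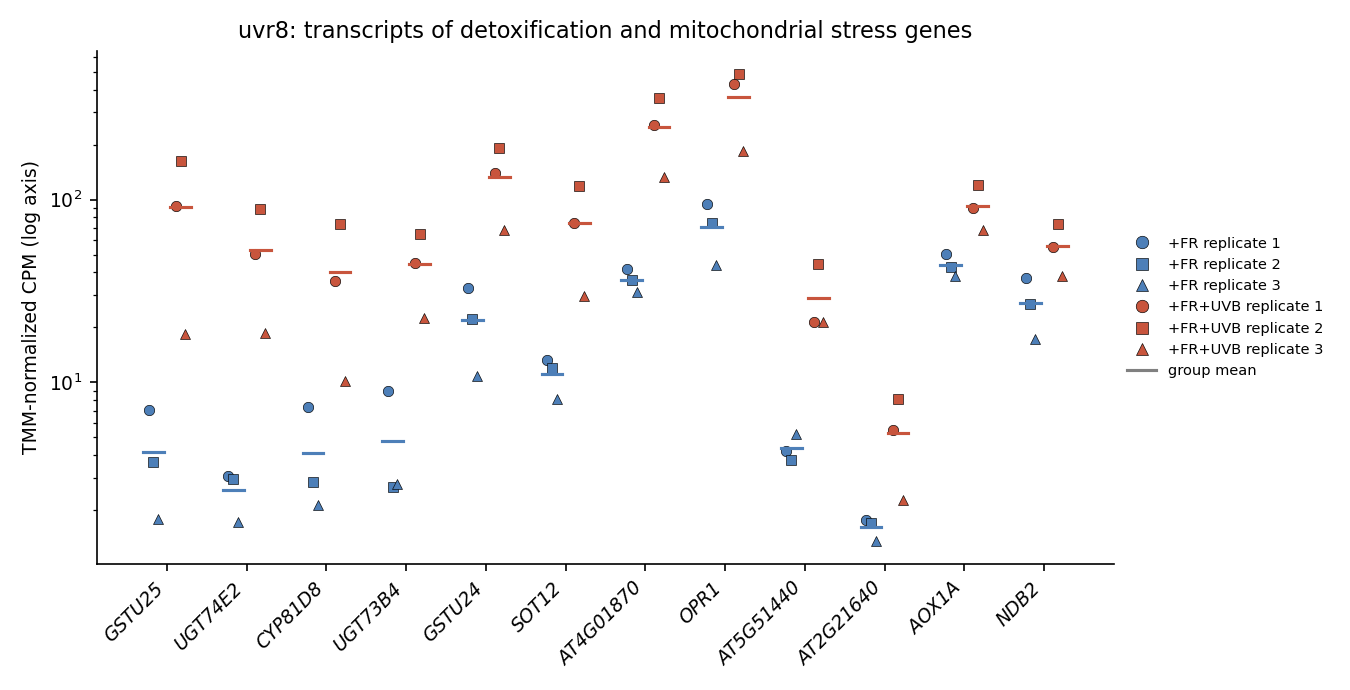
TMM-normalized CPM (log axis) of 12 detoxification and mitochondrial stress genes in each of the 3 *uvr8-6* +FR libraries (blue) and the 3 +FR+UVB libraries (red), with the replicate given by the marker and the group mean by a line. The red markers lie above the blue ones for each of the 12 genes, and the third +FR+UVB replicate is the lowest of its group for 11 of them, with AT5G51440 the exception.

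The rises also included genes of mitochondria and of the mitochondrial stress response, named here after their values were seen. *AOX1A*, the alternative oxidase that lets electrons bypass the cytochrome pathway, had 50.4, 42.7 and 38.3 CPM under +FR and 89.4, 120 and 67.9 CPM under +FR+UVB. The groups did not overlap and the log2 fold change was 1.08 ± 0.20 (adjusted p = 0.00214 by edgeR). *NDB2*, a mitochondrial NADH dehydrogenase that feeds the alternative pathway, had 37.4, 26.9 and 17.2 CPM under +FR and 55.0, 73.3 and 38.2 CPM under +FR+UVB, with the third +FR+UVB library barely above the first +FR library. *AT5G51440*, a mitochondrial small heat shock protein, had 4.19, 3.74 and 5.22 CPM under +FR and 21.35, 44.4 and 21.5 CPM under +FR+UVB. The third +FR+UVB library was level with the first, unlike for most genes, and the log2 fold change was 2.72 ± 0.36 (adjusted p = 5.48e-05 by edgeR). *AT2G21640*, a marker gene of the oxidative stress response, had 1.76, 1.70 and 1.36 CPM under +FR and 5.49, 8.07 and 2.26 CPM under +FR+UVB (log2 fold change 1.70 ± 0.44, adjusted p = 0.0341 by edgeR). The calls of *NDB2* and *AT2G21640* were lost when 1 of several libraries was left out, 4 libraries for the first and 5 for the second. *AT2G18193*, annotated as a P-loop nucleoside triphosphate hydrolase, had 8.59, 3.23 and 0.940 CPM under +FR and 40.7, 63.3 and 10.9 CPM under +FR+UVB.

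The mitochondrial dysfunction motif is an element that Arabidopsis NAC factors bind in mitochondrial retrograde signalling. It was searched in the 300 bases before the annotated start of each gene, because several of its known target genes had been seen among the rises. Its share among the rises and the values of the genes that hold it are therefore not independent of that choice. The letters searched were CTTG, 5 bases of any kind and CAAG, a form that is its own reverse complement, and CTTG, 5 bases of any kind and CACG, both on either strand. Of the 129 genes called higher, 14 held 1 form or the other (10.9%), against 0 of the 50 called lower and 232 of the 20813 windows of all tested genes (1.11%). The median log2 fold change was 2.94 for the 14 and 1.61 for the other 115. The 15 matches lay between 51 and 269 bases before the start. The stretches below are from RefSeq's TAIR10.1, on the strand of the gene, with the match in capitals and 8 bases on either side, for those of the 14 genes that are named elsewhere in the text. They are printed because the same spaced letters recur in genes with different functions.
AT2G21640 (chr2:9254319-9254347, plus strand): tttagtaaCTTGCTCTCCAAGgagatcta
NDB2 (chr4:2572340-2572368, plus strand): cgatctggCTTGGCCACCAAGattgtttg
CYP81D8 (chr4:17571863-17571891, minus strand): caaactttCTTGAGGAACAAGacttgact
AT4G12735 (chr4:7494323-7494351, minus strand): ttattaagCTTGGCCGCCAAGttataatg
AT4G12735 (chr4:7494395-7494423, minus strand): caaaagtcCTTGAACTTCACGtacgaaga
AT5G51440 (chr5:20891045-20891073, plus strand): ttattttaCTTGGAGACCACGcagttcta
AT2G18193 (chr2:7919415-7919443, minus strand): gtaatttcCTTGCACCGCACGcttccttc
UGT73C6 (chr2:15421903-15421931, minus strand): ctttctttCTTGCTCTCCACGcatcttgt
AT2G38823 (chr2:16223910-16223938, plus strand): taccttggCGTGGGGAGCAAGatcctcgt
*AT4G12735*, which codes for an uncharacterized protein, held both forms. Of the 14 genes 13 were also called higher in *uvr8-6* under +UVB against WL and 14 in wild type under +FR+UVB against +FR, beside 84 (65.1%) and 85 (65.9%) of all 129 rises. A match is a description of the letters and was not tested as a binding site. The windows of *NDB2*, *CYP81D8*, *AT4G12735*, *AT5G51440*, *UGT73C6* and *AT2G38823* also overlap another annotated gene.

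The core TGACG, to which TGA bZIP factors bind in detoxification genes, occurred in 51 of the 129 windows (39.5%), in 14 of the 50 (28.0%) and in 22.1% of all windows. Among the 19 members of the oxidative stress and detoxification list that were called higher, 11 windows held it (57.9%). The W-box core TTGAC, which shares 4 letters with TGACG and can overlap it, was in 71.3% of the windows of genes called higher, 64.0% of those called lower and 50.6% of all. The G-box CACGTG was in 7.75%, 8.00% and 8.00%, and the heat shock core GAANNTTC in 11.6%, 8.00% and 11.4%, shares among the rises that lay close to those over all genes. The windows of *GSTU25* (chr1:5871724-5872023) and *AT2G18193* (chr2:7919346-7919645, minus strand) are shown as examples with 1 and with several cores. They are in gene orientation with the start to the right. Capitals mark TGACG, or CGTCA where it is on the other strand, and in *AT2G18193* also the mitochondrial dysfunction motif.
GSTU25: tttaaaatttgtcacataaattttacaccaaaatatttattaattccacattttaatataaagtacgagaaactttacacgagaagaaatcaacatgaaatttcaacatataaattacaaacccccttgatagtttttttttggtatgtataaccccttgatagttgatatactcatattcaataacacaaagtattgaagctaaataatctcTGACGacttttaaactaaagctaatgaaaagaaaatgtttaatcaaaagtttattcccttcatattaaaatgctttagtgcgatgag
AT2G18193: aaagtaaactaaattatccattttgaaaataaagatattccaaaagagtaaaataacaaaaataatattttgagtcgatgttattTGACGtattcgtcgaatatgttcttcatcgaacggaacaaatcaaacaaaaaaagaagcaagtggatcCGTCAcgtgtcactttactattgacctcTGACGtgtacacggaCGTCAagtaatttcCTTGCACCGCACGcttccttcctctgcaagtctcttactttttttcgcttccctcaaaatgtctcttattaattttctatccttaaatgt

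Several transcripts near the floor under +FR appeared under +FR+UVB. *AT2G38823*, an uncharacterized gene with a mitochondrial dysfunction motif, had 0.0517, 0 and 0.0522 CPM under +FR, all at the floor, and 9.93, 24.7 and 1.62 CPM under +FR+UVB. It was at least 75.3-fold higher, taking 3 counts per library as the floor. By the same floor *AT3G54530* was at least 28.7-fold higher, *AT1G55230* at least 11.1-fold and *AT3G54520*, which lies beside *AT3G54530*, at least 7.85-fold. The third +FR+UVB library was at 0.256 CPM or less for these 3 genes. All +FR libraries were at the floor for 7 of the 129 genes.

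Regulators and signalling genes were fewer. *NAC102* and *ATAF2*, NAC factors of a stress-responsive subgroup, went from 49.9 ± 12.3 to 118 ± 31.7 CPM and from 35.5 ± 12.2 to 105 ± 44.0 CPM. *AGC2-1*, the oxidative-signal inducible kinase OXI1, went from 2.76 ± 1.38 to 11.5 ± 6.70 CPM. Of 40 rapid stress transcription factors of the WRKY, ZAT, ERF and related families, 35 had a log2 fold change above 0. The median was 0.68, and over all genes 10436 of 20926 were above 0. Of the 40, 2 were called higher and 0 lower, beside 0.616% and 0.239% of all genes. Both overlapped between groups: *WRKY75* had 1.91, 0.907 and 0.783 CPM under +FR and 5.14, 8.38 and 1.49 CPM under +FR+UVB, and *RHL41* (ZAT12) had 6.62, 3.80 and 1.46 CPM and then 12.7, 19.3 and 4.78 CPM. In each case only the third +FR+UVB library fell inside the range of the +FR libraries.

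Of 4 nicotianamine synthase genes, a family chosen after its values were seen, 2 were called higher and 0 lower, beside 0.616% and 0.239% of all genes. *NAS2* and *NAS3*, whose enzymes make the metal chelator nicotianamine, went from 2.98 ± 0.597 to 18.8 ± 9.82 CPM and from 2.44 ± 0.176 to 7.42 ± 1.39 CPM, whereas *NAS1* and *NAS4* had log2 fold changes of 0.38 and -0.45 (adjusted p = 0.382 and 0.571 by edgeR). *ZIFL1*, a transporter of the zinc-induced facilitator family, went from 18.5 ± 4.44 to 48.9 ± 12.7 CPM. *NAS3* was one of 4 genes called higher with their highest value in the third +FR+UVB library (5.83, 8.02 and 8.41 CPM).

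The 50 genes called lower included several that are known from roots. *MRN1*, the marneral synthase, had 26.1, 45.3 and 2.19 CPM under +FR and 6.52, 4.53 and 0.640 CPM under +FR+UVB. The first 2 +FR libraries were high, while the third was below 2 of the +FR+UVB libraries, so the groups overlapped. The log2 fold change was -2.67 ± 0.70 (adjusted p = 0.0389 by edgeR). *CYP71A16*, the marneral oxidase beside it, showed the same order, with 21.6, 29.6 and 4.07 CPM under +FR and 6.77, 2.45 and 1.79 CPM under +FR+UVB. Of the thalianol gene cluster, a second group of triterpene genes of the root, the acyltransferase gene *AT5G47980* was called lower (log2 fold change -1.81), whereas *THAS1* (82.3, 84.5 and 7.52 CPM under +FR, 60.9, 37.6 and 6.49 CPM under +FR+UVB), *CYP708A2* and *CYP705A5* were not. The third replicate was far below the other 2 in both groups for *THAS1*, *CYP708A2* and *CYP705A5* (clusters examined after their values were seen).

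Falls with no overlap came from other genes. *AT5G46890*, a lipid-transfer protein gene, had 12, 14.9 and 11.2 CPM under +FR and 6.57, 3.02 and 3.5 CPM under +FR+UVB. The log2 fold change was -1.54 ± 0.24 (adjusted p = 0.000386 by edgeR). Its neighbour *AT5G46900* is a near copy and had 11.3 ± 2.36 and 4.07 ± 1.75 CPM. *CYP82F1* had 17.5, 21.0 and 8.25 CPM under +FR and 6.72, 3.28 and 4.01 CPM under +FR+UVB, with the third +FR library close to the first +FR+UVB library. *UGT72E2*, which glucosylates monolignols, went from 50.9 ± 14.2 to 24.0 ± 4.13 CPM. *SPS2F*, a sucrose phosphate synthase, went from 45.1 ± 15.6 to 20.8 ± 0.876 CPM. *AGP30*, an arabinogalactan protein of roots, went from 6.93 ± 2.93 to 2.28 ± 0.393 CPM, and *CASP5*, a Casparian strip membrane protein, from 1.64 ± 0.478 to 0.564 ± 0.145 CPM. *ANNAT4* and *ANNAT3*, neighbouring annexin genes, had overlapping groups because the third +FR library was low (32.0 and 7.78 CPM).

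Root content of the samples was read from 16 root markers, of which 15 were tested and *NRT2.1* did not pass the authors' filter. They summed to 288, 295 and 191 CPM in the 3 +FR libraries and to 302, 239 and 198 CPM in the 3 +FR+UVB libraries, and 0 of the 15 were called by edgeR or DESeq2, with 1 at an unadjusted p under 0.05. The third libraries of both groups were the lowest. The endodermal markers *SCR*, *CASP1* and *CASP2* had log2 fold changes between 0.05 and 0.14, and the root-hair genes *EXPA7*, *EXPA18* and *SHV2* (COBL9) had -0.61, -0.76 and -0.99, with none past the adjusted p. None of the tested root markers was at 0 in any of the 6 libraries. The part of root content in the falls was not tested. Without the third +FR library 112 genes were called lower in place of 50.

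**Figure D2:**
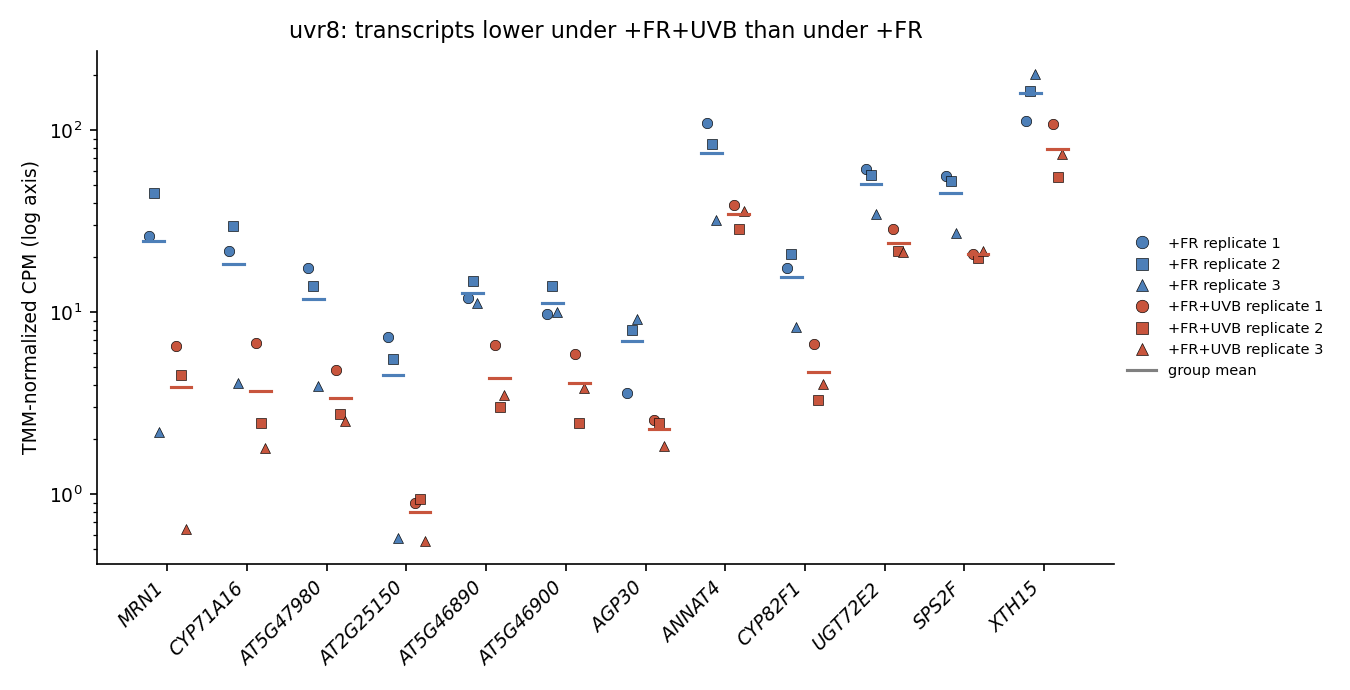
TMM-normalized CPM (log axis) of 12 genes called lower, in each of the 3 *uvr8-6* +FR libraries (blue) and the 3 +FR+UVB libraries (red), with the replicate given by the marker and the group mean by a line. For MRN1 the third +FR replicate (2.19 CPM) lies below the first 2 +FR+UVB replicates (6.52 and 4.53 CPM), while for AT5G46890 the groups are apart.

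The UV-B response of *uvr8-6* was compared between low R:FR and WL, which used separate libraries. Under WL, +UVB raised 151 transcripts (0.722%) and lowered 64 (0.306%). With the *uvr8-6* libraries alone these counts were 6 and 3. They were 84 and 25 without the first WL library, 252 and 76 without the second and 78 and 32 without the third, and 95 and 16 without the first +UVB library, 71 and 28 without the second and 317 and 155 without the third. Of the 129 genes higher under low R:FR, 84 were also called higher under WL, which is 65.1% of the first set and 55.6% of the second, and 128 of 129 had a positive fold change under WL, against 48.7% of all genes. The 84 shared genes became 5 with the *uvr8-6* libraries alone, 44 without the second +FR+UVB library, 53 without the second +FR library and 55 without the second +UVB library. Of the 50 genes lower under low R:FR, 16 were called lower under WL (32.0% and 25.0%), and all 50 had a negative fold change there. The median log2 fold change of the 129 genes was 1.67 under low R:FR and 1.39 under WL. Read the other way, of the 151 genes selected under WL, 150 had a positive fold change under low R:FR, with a median of 1.37, and of the 64, 62 had a negative one, with a median of -0.97. Over the 179 genes called under low R:FR the fold changes of both comparisons had a Pearson correlation of 0.936 (Spearman 0.896). Over all genes it was 0.502 (Spearman 0.456), as a description across genes of 1 genotype. Selection of the 179 by a large fold change in either direction by itself raises such a correlation, so the 2 values are not alike.

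A difference between the UV-B effects under low R:FR and under WL was called for 0 genes (0%) by edgeR's quasi-likelihood test, with 817 genes at an unadjusted p under 0.05 and a smallest adjusted p of 0.999992. DESeq2's Wald test called 1 gene, *AT3G21330*, with 752 at an unadjusted p under 0.05. The SE of the difference was 0.84 on the log2 scale for *GSTU25*, so a difference of that size would not have been detectable. *GSTU25* itself had a log2 fold change of 4.44 under low R:FR and 4.99 under WL, *OPR1* 2.36 and 1.98, *AT5G51440* 2.72 and 3.04, and *AT5G46890* -1.54 and -1.87. Among genes called only under low R:FR, *NAS2* had 2.66 against 1.24 and *UGT72E2* -1.09 against -0.45, and neither difference passed the test.

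**Figure D3:**
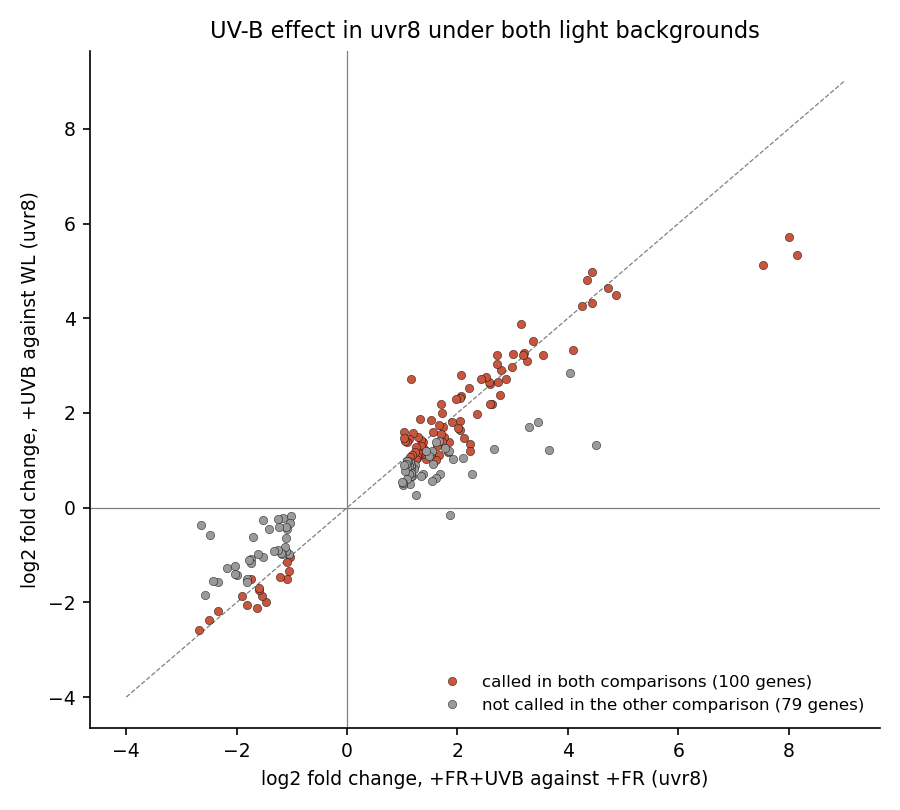
Log2 fold change of the 179 genes called in *uvr8-6* under +FR+UVB against +FR (x axis) against their log2 fold change under +UVB against WL in *uvr8-6* (y axis), 1 point per gene. Of them, 100 were called in both comparisons (red) and 79 in the first only (grey), and nearly all points lie in the lower left or upper right quadrant, around the dashed line of equality.

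Wild type was used to ask how much of this response is seen when UVR8 is present. Of the 129 genes, 85 were called higher in wild type by UV-B under low R:FR (65.9% of these genes and 4.91% of the 1731), and 37 of the 50 were called lower (74.0%, and 2.07% of the 1785). In *hfr1-101*, which has UVR8, 65 of the 129 and 39 of the 50 were called (background 6.61% and 6.66%). Genes called in all of *uvr8-6* under both lights, wild type and *hfr1-101* numbered 51 higher and 13 lower. *GSTU25* had a log2 fold change of 4.27 in wild type against 4.44 in *uvr8-6*, *UGT74E2* 3.82 against 4.35, *AT5G22140* 3.01 against 3.2, *AT5G51440* 2.73 against 2.72 and *IAGLU* 1.79 against 1.82. The differences between genotypes had SEs between 0.30 and 0.92 and adjusted p of 0.702 or more by edgeR, which does not show the effects to be alike. Of the 129, 95 showed no difference from wild type at an adjusted p under 0.05, and of the 50, 38 showed none. Over all genes the difference was called for 3440 genes as higher in *uvr8-6* (16.4%) and for 3555 as lower (17%), a balance that depended on the scaling, with 6193 higher and 1898 lower without TMM factors.

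Together, 46 of the 179 genes differed from wild type, a count that was 18 without the second +FR+UVB library of *uvr8-6*, 24 without its second +FR library and 114 without the third +FR+UVB library. In 13 of the 129 genes the rise was smaller in *uvr8-6* than in wild type. All 13 were called higher in wild type, which follows largely from their selection by a rise of more than 2-fold in *uvr8-6*. *ELIP2*, an early light-induced protein of chloroplasts, had 11.6, 10.2 and 11.2 CPM under +FR and 18.19, 15.0 and 35 CPM under +FR+UVB. The third +FR+UVB library was the highest, the reverse of the detoxification genes. Its log2 fold change of 1.05 ± 0.27 in *uvr8-6* stood against 9.26 in wild type, a difference of -8.21 ± 0.42. *MYB12*, an activator of flavonol synthesis, went from 3.33 ± 0.482 to 7.54 ± 2.1 CPM (log2 fold change 1.17 against 5.37 in wild type). *CYP707A2*, which inactivates abscisic acid, *NIT4*, a nitrilase of cyanide detoxification, and the glucosyltransferase genes *UGT73C1*, *UGT73C6*, *DOGT1* (UGT73C5) and *AT2G22590* belonged here too. For *AT2G22590* the log2 fold change was 1.16 against 8.15. *AOX1A* and *ABCA7* had differences of -1.14 and -1.09.

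In 21 genes the rise was larger in *uvr8-6*, and 19 of them were not called in wild type. *Prx37*, a class III peroxidase, had 15.7, 10.4 and 12.4 CPM under +FR and 34.2, 39.7 and 36.3 CPM under +FR+UVB. These libraries were tight and apart, and the log2 fold change of 1.52 ± 0.32 stood against 0.11 in wild type. The organ-size genes *ARL* and *ARGOS* and the RAV-family factor *EDF3* had log2 fold changes of 1.33, 1.23 and 1.06 in *uvr8-6* and -0.51, 0.28 and -0.02 in wild type. The remaining 2 of the 21 were called lower in wild type. *AT3G25190*, a vacuolar iron transporter family gene, had 8.17, 7.42 and 8.04 CPM under +FR and 18.9, 29.9 and 15.8 CPM under +FR+UVB. Its log2 fold change was 1.45 against -1.17 in wild type, and the noncoding RNA gene *AT1G11185* had 1.37 against -1.74. *AT1G60750*, *UGT75B1*, *UGT74F2*, *CYP72A8* and the TIR-domain gene *AT1G72900* also rose more in *uvr8-6*.

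Among the 50 falls, 7 were larger in *uvr8-6* and 5 smaller than in wild type. *CYP82F1* had a log2 fold change of -1.73 in *uvr8-6* and -0.05 in wild type (difference -1.68 ± 0.45, adjusted p = 0.00454 by edgeR). *SPS2F* had -1.12 against 0.24 and *UGT72E2* -1.09 against -0.15. *AT1G47610*, a WD40-repeat gene, and *AT1G02030*, a C2H2 zinc finger gene, were lower in *uvr8-6* (-2.49 and -1.17) and called higher in wild type (1.49 and 2.66). The 5 smaller falls were those of *AT5G46890*, *CYS2*, *AT3G28220*, *AT1G52000* and *XTH15*. *XTH15* (XTR7), a cell wall enzyme induced by shade, had 113, 165 and 204 CPM under +FR and 109, 55.5 and 73.7 CPM under +FR+UVB, and its log2 fold change was -1.02 in *uvr8-6* against -4.52 in wild type.

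**Figure D4:**
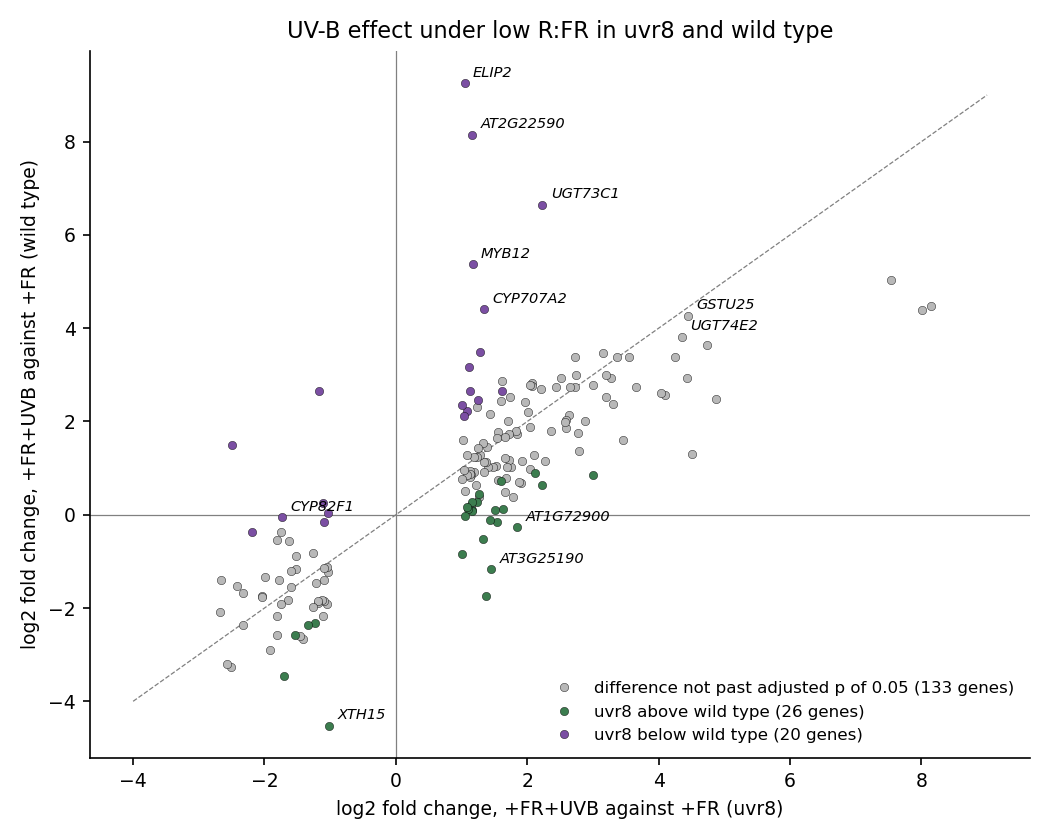
Log2 fold change of the 179 genes called in *uvr8-6* under +FR+UVB against +FR (x axis) against that in wild type (y axis), 1 point per gene, coloured by whether the difference between genotypes passed an adjusted p of 0.05. ELIP2 (1.05 against 9.26) and AT2G22590 (1.16 against 8.15) lie far above the dashed line of equality, and GSTU25 (4.44 against 4.27) lies on it.

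Of 18 lists of known pathways, chosen with earlier results of these data known, 1 held more than 2 called members in *uvr8-6*. Of its 37 oxidative stress and detoxification genes, 19 were called higher and 0 lower, with a median log2 fold change of 1.37, beside 0.616% of all genes called higher. The list held every tau-class glutathione S-transferase gene that was called higher, but not every one tested. Its share of called genes is therefore not independent of how it was composed. The count of 19 fell to 11 without the second +FR+UVB library, to 4 with the *uvr8-6* libraries alone and to 0 with the 6 libraries alone. The same list had 18 called higher in *uvr8-6* under WL (median 1.48) and 21 in wild type under low R:FR (median 1.13). Members with little change included the superoxide dismutases *CSD1* and *CSD2*, at -0.22 and -0.20, and *GSTF6*, at -0.38.

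The lists below are read beside the 0.855% of all genes called in either direction in *uvr8-6*, a share at which lists of this size would hold few or no called genes. Of 16 UVR8 signalling genes 0 were called in *uvr8-6* (median log2 fold change 0.05), against 8 higher and 1 lower in wild type, where 8.27% and 8.53% of all genes were called. *HY5* had 17.1, 17.8 and 16.5 CPM under +FR and 20.0, 25.2 and 16.8 CPM under +FR+UVB, groups that overlapped, and its log2 fold change of 0.27 stood against 2.73 in wild type. *RUP1* and *RUP2*, repressors of UVR8, had 0.05 and 0.03 against 3.25 and 3.26. *HYH*, the HY5 homologue, had 26.4, 27.1 and 20.2 CPM under +FR and 37.8, 39.4 and 30.4 CPM under +FR+UVB. Its groups did not overlap, and its log2 fold change of 0.55 ± 0.11 passed an adjusted p of 0.05 (0.00853 by edgeR) but not the 2-fold minimum, against 2.69 in wild type. The B-box gene *LZF1* (BBX22) was likewise at 24.7 ± 2.17 and 35.6 ± 3.48 CPM (log2 fold change 0.52, adjusted p = 0.0255 by edgeR). *ELIP1* had 21.2, 21.7 and 23.9 CPM and then 36.4, 29.9 and 62.1 CPM (0.94, adjusted p = 0.0210 by edgeR). The list held 4 genes at an unadjusted p under 0.05 by edgeR and 0 calls by DESeq2.

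Of 17 flavonoid genes only *MYB12* was called higher in *uvr8-6*, with a list median of 0.49, against 17 of 17 and 4.24 in wild type. *TT4* (chalcone synthase), the first enzyme of the pathway, had 576, 614 and 424 CPM under +FR and 635, 518 and 588 CPM under +FR+UVB. Its log2 fold change was 0.11 against 3.84 in wild type. Of 8 UV repair and photoprotection genes only *ELIP2* was called (median 0.16, against 7 of 8 and 3.42 in wild type), and of 17 genes of the DNA damage response 0 were called, with 5 at an unadjusted p under 0.05. DESeq2 called 0 genes of this list and of the shade and auxin lists.

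Few of the genes known to be induced by shade were called in *uvr8-6*, where 0.855% of all genes were called. Of 19 shade-induced regulators 0 were called in *uvr8-6* (median -0.10, with 14 below 0 and 5 at an unadjusted p under 0.05), against 13 called lower in wild type (median -1.64). Of 22 auxin genes 0 were called (median -0.05, with 0 at an unadjusted p under 0.05), against 17 lower (median -1.97), and of 20 cell wall and growth genes 1 was, *XTH15*, against 11. *PIL1* had 66.1, 77.2 and 81.8 CPM under +FR and 62.7, 47.8 and 66.9 CPM under +FR+UVB, and its groups overlapped (-0.34, adjusted p = 0.318 by edgeR; -1.50 in wild type). *HB-2* (ATHB2), a homeodomain factor of shade avoidance, had 92.0, 94.7 and 87.7 CPM and then 69.0, 71.1 and 65.3 CPM, with no overlap. Its log2 fold change of -0.42 ± 0.10 passed the adjusted p (0.0203 by edgeR) and was under the 2-fold minimum, beside -1.39 in wild type. *IAA29* had -0.27 against -4.16 in wild type, *GH3.3* 0.66 against -3.50, *YUC8* -0.07 against -2.42 and *ST2A* -0.54 against -4.0, and each of these differences passed an adjusted p of 0.05. *PIF4* (-0.41) and *HFR1* (-0.42) had no overlap between groups but an adjusted p of 0.306 and 0.309 by edgeR. Of the 299 genes that low R:FR induced in wild type, 1 was called higher and 4 lower in *uvr8-6*, beside 0.616% and 0.239% of all genes. By the adjusted p alone 3 were higher and 9 lower. A log2 fold change below 0 was seen for 200 of the 299, against 10484 of 20926 genes, and their median was -0.13.

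The remaining lists held between 0 and 2 called genes. Heat shock genes had 2 of 16 called, *AT5G51440* and *AT2G29500* (median 0.58), and jasmonate genes 1 of 24, the cystatin *CYS2*, as lower. Abscisic acid and cold genes had 0 of 23 called, with 20 of 23 below 0, a median of -0.55 and 7 at an unadjusted p under 0.05. By edgeR 0 genes were called of 26 salicylate, 30 clock, 13 touch, 27 cytokinin and ethylene, 18 dark-inducible and 31 photosynthesis genes, with 2, 5, 1, 10, 6 and 0 at an unadjusted p under 0.05 in this order. DESeq2 called 0 in each of these lists too, and *WRKY40* in addition among the rapid stress transcription factors. The photosynthesis genes had a median of 0.01.

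**Figure D5:**
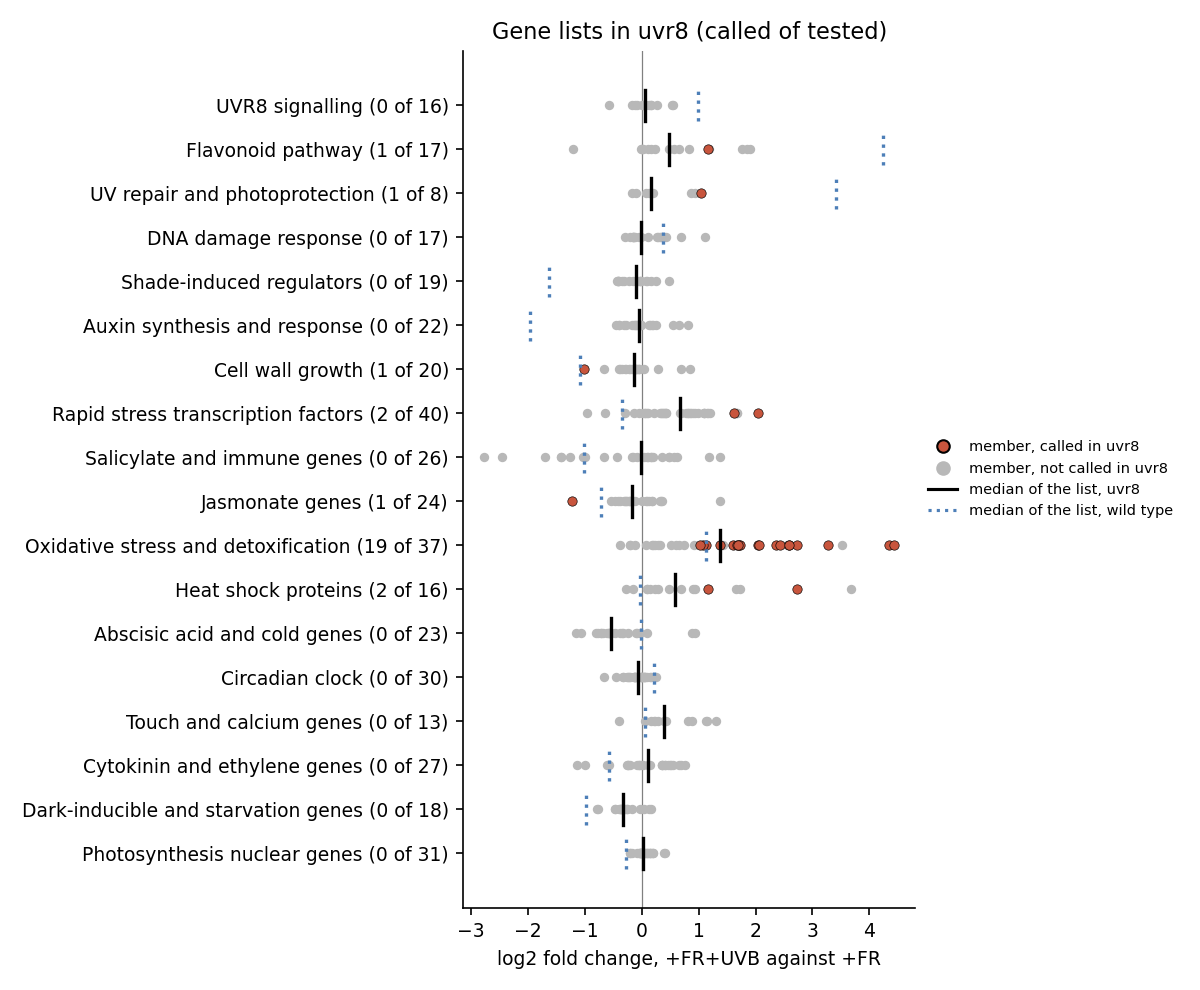
Log2 fold changes of the tested members of 18 gene lists under +FR+UVB against +FR in *uvr8-6*, 1 point per gene, with called members in red, others in grey, the median in *uvr8-6* as a black bar and that in wild type as a dotted blue bar. The oxidative stress and detoxification list (19 of 37 called) lies to the right in *uvr8-6*, whereas the black bar of the flavonoid list is at 0.49 and its blue bar at 4.24.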

How the data were processed

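RNA was sequenced from 36 samples, 3 for each of 12 combinations of genotype and light. By the methods and the submitters' processing notes, the authors checked reads with FastQC 0.10.2, mapped them to TAIR10 with TopHat2 2.0.13, counted them per gene with HTSeq 0.6.1 and normalized with edgeR 3.4.2. They deposited a table of raw counts for 33602 genes, without normalization, and a table of normalized signal values for 20926 genes. The deposited signal values equal the counts scaled by TMM factors within 0.0283%, and were used only to choose the genes tested. Whether counting used strand is not given in the sources used here, so overlapping genes and near-identical copies are uncertain.

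The raw counts were tested with edgeR 4.0.16 (R 4.3.3, limma 3.58.1) in 1 quasi-likelihood model of all 36 libraries with a coefficient per group, in the legacy form closest to the authors' version. TMM factors of the 6 libraries lay between 1.03 and 1.13. A gene was called at a Benjamini-Hochberg adjusted p under 0.05 over all genes tested and a fold change over 2. Differences between 2 effects were called at an adjusted p under 0.05 without a fold minimum. The SE of a log2 fold change came from the quasi-likelihood test and includes the spread between libraries. SDs of CPM are over the 3 libraries of a group. The floor of 3 counts covers counting error only.

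The fit was checked on simulated data for this comparison, with 200 of 20926 genes changed. All 100 genes changed 3-fold and 99 of 100 changed 6-fold were recovered, with 1 unchanged gene called. The changed genes were drawn from those with a mean of at least 50 counts under +FR. Each +FR+UVB library was given the same fold, at the spread fitted over all 36 libraries. In the data the libraries of a group differed in how far they moved, so this recovery does not carry over to the calls above.

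The genes compared, the 18 gene lists, the markers and the rule for named genes were chosen with earlier results of these data known. By that rule genes are named when they were among the 12 largest rises or falls with no overlap and a mean of at least 50 counts, were called members of a list, are named by identifier in the study, or were called under both lights. Other genes were chosen after their values were seen. Each library was taken to its group by its title.

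Alternatives were no TMM factors, DESeq2 1.42.0, the current form of edgeR's test, the 26408 genes counted at all, the filter of filterByExpr (20867 genes), the *uvr8-6* libraries or the 6 libraries alone, a replicate block, fold minimums of 1.5 and none, and each library left out. Fits to the 20831 nuclear genes and without replicate 3 of both groups were added after the data were seen. Promoter windows and sequences came from RefSeq's TAIR10.1 with Python 3.11.15.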

Additional observations from a re-analysis of the deposited data

Results flagged for a closer look

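The following genes had a UV-B effect under low R:FR that differed between *uvr8-6* and wild type at an adjusted p under 0.05 (edgeR's quasi-likelihood test of the difference), among the 124 genes examined for the text. Values are the log2 effect in *uvr8-6* minus that in wild type.

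The effect was lower in *uvr8-6* for UVR8 pathway, photoprotection and flavonoid genes: *ELIP2* (-8.21), *ELIP1* (-6.60), *MYB12* (-4.21), *TT4* (-3.73), *RUP2* (-3.23), *RUP1* (-3.20), *HY5* (-2.46), *HYH* (-2.14) and *LZF1* (-1.88). It was lower for the glucosyltransferase genes *AT2G22590* (-6.99), *UGT73C1* (-4.42), *DOGT1* (-2.21), *UGT73C6* (-1.03) and *UGT72E2* (-0.94). It was also lower for *CYP707A2* (-3.06), *NIT4* (-2.04), *CYP82F1* (-1.68), *SPS2F* (-1.36), *AOX1A* (-1.14) and *ABCA7* (-1.09).

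The effect was higher in *uvr8-6* for shade and auxin genes, whose values in wild type fell: *GH3.3* (4.16), *IAA29* (3.88), *XTH15* (3.51), *ST2A* (3.46), *FHL* (2.56), *YUC8* (2.34), *FLP1* (1.71), *PIF4* (1.24), *PIL1* (1.15), *HB-2* (0.97), *PIL6* (PIF5, 0.94) and *HFR1* (0.79). Of these, only *XTH15* was called in *uvr8-6* itself. It was higher for transcripts that rose in *uvr8-6*, namely *AT1G11185* (3.11), *AT3G25190* (2.62), *AT1G60750* (2.16), *AT1G72900* (2.11), *ARL* (1.84), *AT1G60740* (1.69), *CYP72A8* (1.55), *Prx37* (1.41), *EDF3* (1.08), *AT2G29500* (1.08), *UGT74F2* (1.07), *ARGOS* (0.95) and *UGT75B1* (0.89). It was higher for transcripts that fell less in *uvr8-6* than in wild type, namely *AT1G52000* (1.75), *CYS2* (1.09), *AT5G46890* (1.04) and *AT3G28220* (1.03).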

How the results depend on the processing

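The counts of 129 genes higher and 50 lower stayed within 1.5 times under edgeR's current method, no TMM factors, both other gene filters and nuclear genes alone. DESeq2 moved the falls to 76 and called 1 difference between lights. With *uvr8-6* libraries alone, edgeR called 28 and 0 genes under low R:FR, 6 and 3 (*PME2*, *AT5G46890*, *AT5G46900*) under WL, 5 in both (*AT1G60750*, *AT4G01870*, *AT5G22140*, *AT5G43450*, *AT5G51440*) and 4 detoxification members (*UGT75B1*, *UGT74E2*, *OPR1*, *UGT73B3*). With the 6 libraries alone the counts were 0 and 0, and 0 for that list. Without a fold minimum they were 275 and 159, 356 and 204 under WL, 166 in both and 184 that also differed from wild type. With a minimum of 1.5 they were 201 (rises), 241 and 105 (WL), 127 and 90. Without replicate 3 of both groups, the falls were 103 and those under WL 101. Without TMM factors, 6193 and 1898 genes differed from wild type in place of 3440 and 3555. A fit to all genes with at least 1 count called 1 gene outside those tested, *AT5G28380*, as lower.

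Leaving out 1 library gave 54 to 243 rises and 7 to 112 falls, 71 to 317 and 16 to 155 under WL, 44 to 106 in both, 18 to 114 called and differing from wild type, 11 to 20 detoxification members, 2944 to 3368 and 3159 to 3807 differences from wild type, and 0 to 0 between lights. The cause was not tested. Genes that were not called changed sign when 1 library was left out, with ranges of -0.069 to 0.022 for *PIL6*, -0.058 to 0.15 for *RUP1*, -0.061 to 0.12 for *RUP2*, -0.034 to 0.22 for *TT4*, -0.39 to 0.065 for *PIL2*, -0.19 to 0.10 for *YUC8* and -0.25 to 0.057 for *FHL*. Without replicate 3 of both groups *RUP2* was at -0.057, *TT4* at -0.046, *YUC8* at 0.049 and *FHL* at 0.081.

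With the replicate number as a block, 125 genes were called higher and 53 lower. Same-numbered libraries correlated at 0.173, 0.0749 and 0.568 after subtraction of group means, and only replicate 3 correlated best with its own number, so the numbers were not taken to pair the libraries.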
